A study of Homo sapiens with 8 samples.

Results

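Ribosomes recovered with the chaperonin TRiC were compared with all ribosomes of the same cells, gene by gene, to describe which protein classes, cellular locations and protein lengths shifted between both pools. The comparison used 4 of the 8 libraries of the series, chosen by their labels alone, namely both TRiC pulldown and both TRiC input libraries. All 4 came from the osteosarcoma cell line U-2 OS, of human origin, with genotype CCT4-Halo, in which the TRiC subunit CCT4 carried a HaloTag from a knock-in by genome editing. The tagged line was 1 clone, so features of that clone are shared by pulldown and input. Every sample received cycloheximide at 100 µg/ml for 1 min, which halts elongation, and was then crosslinked through protein amines with DSP at 2 mM, over 30 min. RNase I trimmed the mRNA down to the parts covered by ribosomes, which were pelleted through a sucrose cushion. Part of the pellet gave the input, and ribosomes captured by anti-HaloTag beads gave the pulldown. Each group held 2 biological replicates. The series holds no pulldown from cells without a tag, so the part of the pulldown recovered without TRiC was not tested.

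TRiC, also called CCT, is a double ring of related subunits that closes around substrate proteins in the cytosol and folds them with the energy of ATP. Actins and tubulins are its best known substrates, and it can meet nascent chains while they are still attached to the ribosome. In selective ribosome profiling, mRNA fragments protected by ribosomes are sequenced from the total pool and, separately, from the ribosomes recovered with the chaperone. A gene's total in the pulldown is then set against its own total in the input, since a longer coding sequence collects more fragments in both pools. The ratio can still depend on coding length, because TRiC cannot reach a chain that is still inside the ribosome. How far it does so was not tested. The ratio is relative, because the counts of each library are scaled to a common sum, and it says nothing about where along the coding sequence TRiC was bound. Chaperones, actins and tubulins are left aside below.

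The libraries held between 24949407 and 32637658 counts. Of the marker genes of a mesenchymal line, VIM, FN1, CDH2, RUNX2 and COL1A1 were present in every library, with RUNX2 lowest at 47.9 to 57.9 counts per 1000000 counts (CPM). The epithelial marker EPCAM was at 6.0 to 9.41 CPM and CDH1 at 0.330 to 0.757 CPM, while PTPRC, CD3E and ALB stayed at or below 0.199 CPM. A single gene, DICER1, took 7.11% and 3.79% of the counts in both inputs and 9.10% and 10.9% in both pulldowns. Replicates of 1 group differed by more than sampling noise, with a chi-square per degree of freedom of 33.2 between the inputs and 13.7 between the pulldowns, and none was a repeat of another. The chi-square is summed over all genes, so the most counted genes weigh most in it. Between the inputs these include DICER1 and ATP6V0E2, the latter at 1.4% and 0.514% of the counts. The common dispersion that edgeR estimated was 0.0153. The library totals make the counting error of abundant genes small, so the spread between replicates limits the precision.

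After the filter on low counts, 17934 genes were tested with edgeR's quasi-likelihood test, and a gene was called when its p-value, adjusted over all of them by the Benjamini-Hochberg method, was under 0.05. Of these, 1550 (8.64%) were higher in the pulldown and 1894 (10.6%) were lower. Of the 19942 protein-coding genes in the table, 14611 passed the filter, and 1168 of them (7.99%) were higher and 1738 (11.9%) lower. These percentages are the background for every count below, although the share called also varied with abundance, as given below. The split between both directions moved with the scaling, to 1801 higher and 1265 lower with plain library totals and to 1596 higher and 1537 lower when protein-coding genes of nuclear chromosomes alone were fitted. Fewer genes were called without input replicate 1 (950 higher, 748 lower) or without input replicate 2 (797 higher, 993 lower), where the lone input was taken to vary like the other groups. In 13 of the 43 lists below, 0 members were higher by edgeR. At an unadjusted p under 0.05, 1 mitochondrial matrix enzyme and 1 aminoacyl-tRNA synthetase were higher in these lists, by DESeq2 the former alone and by limma-trend 1 of each. Most shifts were small. Among called protein-coding genes of nuclear chromosomes, 90% had a log2 fold change of at most 0.92 in either direction, 215 were more than 1 log2 unit higher and 32 more than 1 log2 unit lower. The median over all 14598 tested protein-coding genes of nuclear chromosomes was -0.03.

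Genes for long proteins were higher in the pulldown and genes for short proteins lower. The median protein length was 913 residues among the genes called higher, 280 residues among those called lower and 477 residues among all tested. Of the 779 genes for proteins of at least 1600 residues, 279 (35.8%) were higher and 14 lower, and the median log2 fold change was 0.26. Of the 1487 genes for proteins of 100 to under 200 residues, 43 were higher and 441 (29.7%) lower, with a median of -0.25. The classes between these followed in order, with medians of -0.14 for 200 to under 400 residues, -0.01 for 400 to under 800 and 0.12 for 800 to under 1600. Proteins under 100 residues, 288 genes, had a median of -0.26, hardly different from the next class.

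The order by length was alike in both libraries of each group. Values here are centred over the 4 libraries, so a difference between groups shows as opposite orders in inputs and pulldowns. With every gene expressed as its log2 CPM minus its own mean over the 4 libraries, proteins of at least 1600 residues had medians of -0.13 and -0.12 in both inputs and 0.10 and 0.15 in both pulldowns. Proteins of 100 to under 200 residues had 0.13 and 0.14 in both inputs and -0.10 and -0.15 in both pulldowns. The difference between both classes was therefore -0.26 in each input and 0.20 and 0.30 in the pulldowns, so the groups did not overlap, and the fitted difference was 0.50 log2 units. An exact permutation test of 2 against 2 libraries cannot give a two-sided p below 0.333, which was the value here and for each share of counts below whose groups did not overlap. With chaperone, actin and tubulin families removed from the classes, the fitted difference was 0.51.

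**Figure D1:**
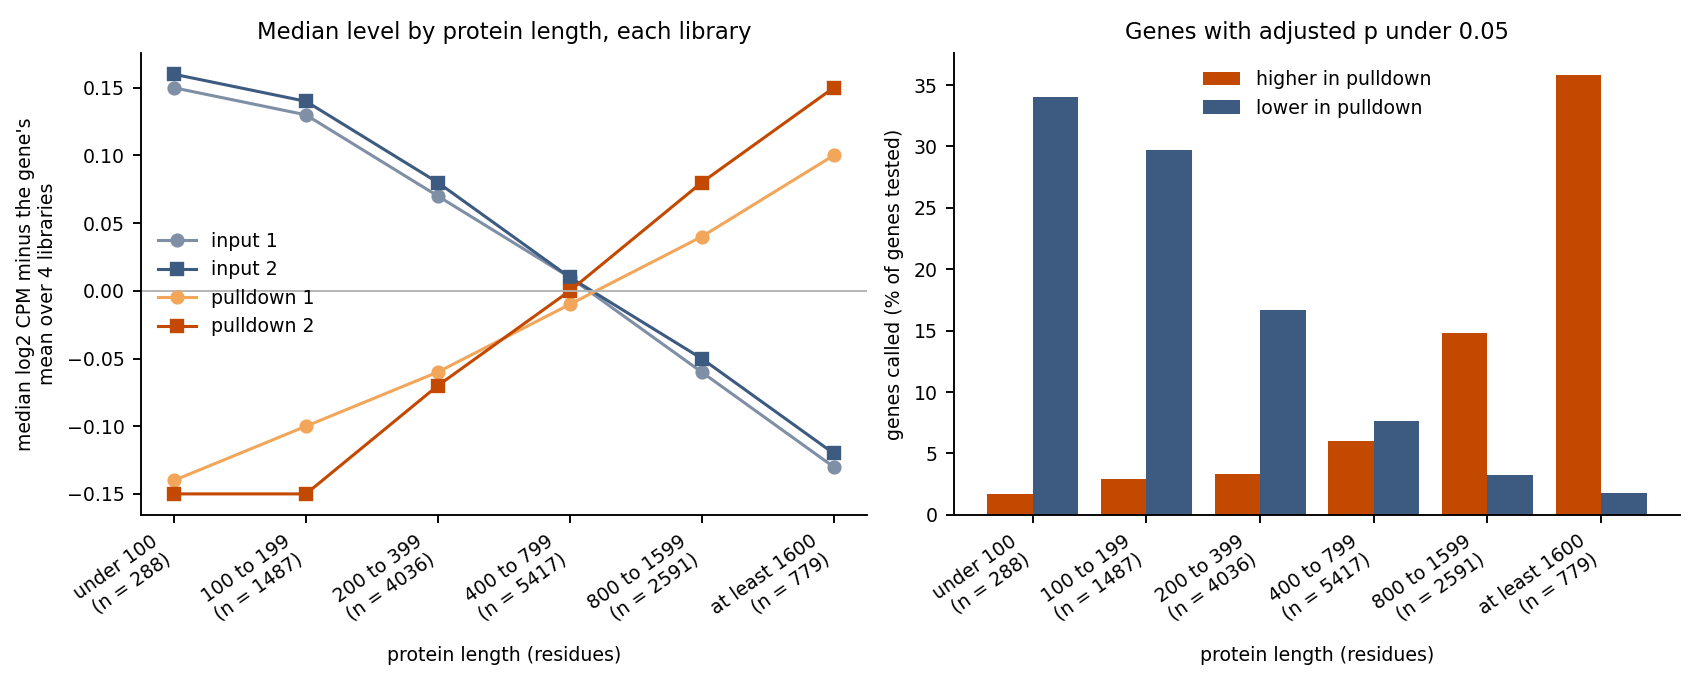
Left, the median over genes of the log2 CPM minus the gene's mean over 4 libraries (y axis), for 6 classes of protein length in residues (x axis, with the number of genes), one line per library. The 2 inputs fall from 0.15 and 0.16 in the shortest class to -0.13 and -0.12 in the longest, and the 2 pulldowns rise from -0.14 and -0.15 to 0.10 and 0.15. Right, bars give the percentage of tested genes called higher (orange) or lower (blue) in the pulldown; 34% of genes in the shortest class were lower and 35.8% in the longest were higher.

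The same order appeared as a share of all counts. Proteins of at least 1600 residues took 18.2% and 15.3% of the counts in both inputs and 21.9% and 23.6% in both pulldowns. DICER1, of 1922 residues, belongs to this class. Among protein-coding counts without DICER1 and ATP6V0E2, the class took 12.3% and 12.2% in both inputs and 14.4% and 14.6% in both pulldowns. Proteins of 100 to under 200 residues took 8.21% and 8.66% of the counts in both inputs and 7.11% and 6.71% in both pulldowns.

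Long proteins also have more exons and longer genes, and the fold change followed these too. Across the 14598 genes, which are not independent replicates, Spearman's rho with the log2 fold change was 0.349 for protein length, 0.286 for exon number and 0.292 for the span of the gene, while length and exon number were correlated with each other at 0.714. Genes with a single exon (381 genes) had a median log2 fold change of -0.26, with 14 higher and 107 lower. Genes with over 20 exons (2078 genes) had a median of 0.18, with 501 higher and 57 lower. Their share of all counts was 29.3% and 26.9% in both inputs and 33.7% and 35.3% in both pulldowns. DICER1, with 27 exons, belongs to this class. Among protein-coding counts without DICER1 and ATP6V0E2, the class took 24.7% and 24.6% in both inputs and 27.6% and 28.1% in both pulldowns. Among proteins of 400 to under 800 residues, single-exon genes had a median of -0.18, genes with 9 to 20 exons -0.01 and genes with over 20 exons 0.09. Within the 4871 genes with 4 to 8 exons, the median still went from -0.23 at 100 to under 200 residues to 0.10 at 800 to under 1600 residues. Protein length and exon number thus each went with the fold change at a fixed level of the other, in most but not all layers. Among genes with 2 to 3 exons the median was -0.02 at 400 to under 800 residues and -0.09 at 800 to under 1600. Exon bases outside the coding sequence showed an order too, with a median of -0.18 in the lowest quintile and 0.10 in the highest. Among proteins of 400 to under 800 residues these medians were -0.10 and 0.08, and those of quintiles of gene span -0.13 and 0.08. Which of these features the fold change depends on was not tested.

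The fold change also went down with abundance. Spearman's rho across genes with the mean count was -0.23, and the median was 0.23 for the 3225 genes with a mean count under 100 and -0.13 for the 2027 genes over 3000. From 100 residues up, the length order was present in each layer of abundance, but among genes with a mean count under 100 the proteins of under 100 residues had a median of 0.20, above the 0.10 at 100 to under 200 residues. Among genes with a mean count over 3000, the median went from -0.37 at 100 to under 200 residues to 0.18 at 1600 residues or more. Among those between 100 and 300, it went from -0.11 to 0.35. The share of genes called lower rose with abundance, from 0.651% at a mean count under 100 to 33.3% over 3000. Comparisons of lists with their length classes below do not take abundance into account unless stated.

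**Figure D2:**
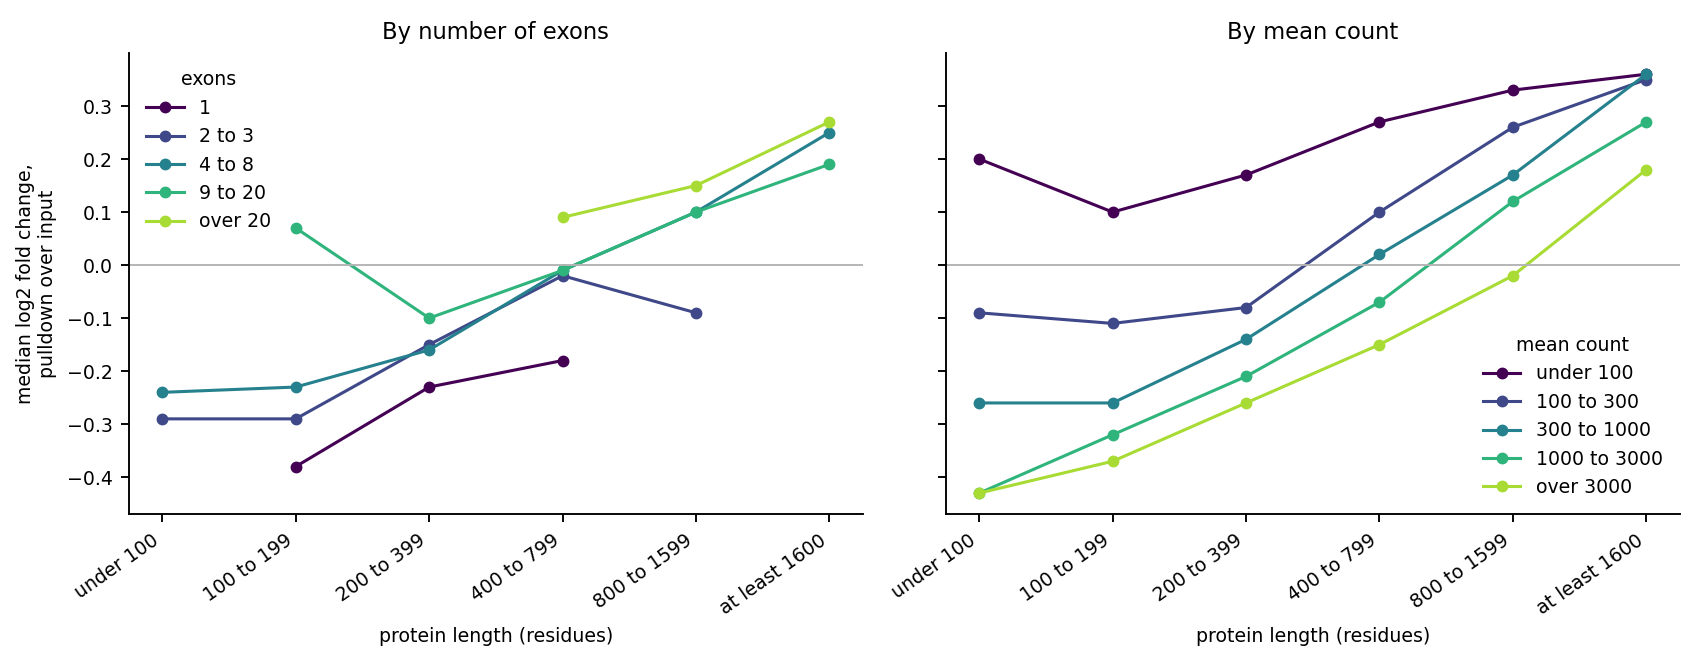
Median log2 fold change of pulldown over input (y axis) by class of protein length in residues (x axis), with genes split by number of exons (left) or by mean count over the 4 libraries (right); each line is one layer, and points with under 20 genes are not drawn. In every layer of mean count the longest class lies above the class of 100 to under 200 residues, and at a given length the genes with the most counts lie lowest or level with the next layer.

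The fold change also went with GC content. The quintile of genes with the lowest GC in the coding sequence had a median of 0.08 and the highest quintile -0.13. By library, the medians of these quintiles were -0.08 and 0.12 in input replicate 1 and 0.10 and -0.12 in pulldown replicate 2, but 0.00 and 0.01 in input replicate 2 and -0.02 and 0.00 in pulldown replicate 1. Within the same-numbered pairs of pulldown and input, the medians of these quintiles were 0.07 and -0.12 in the first and 0.11 and -0.14 in the second. Lysine, the residue that DSP reaches, showed little order, with medians between -0.08 and 0.00 over quintiles of lysine share. These quintiles also differed in length and in GC content, with a median GC of 62% in the lowest and 45.3% in the highest. Lysine share is not the number of lysines in a protein, and the part of crosslinking in the shifts was not tested.

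Of the 43 lists, the one that fell furthest held the 13 proteins encoded in the mitochondrial genome, which are made by the mitochondrion's own ribosomes inside the organelle. Each of the 13 was lower in the pulldown, with a median log2 fold change of -2.95. MT-CO1 (chrM:5904-7445, hg38), the catalytic subunit of cytochrome c oxidase, was at 1107 and 1198 CPM in the inputs and 78.7 and 106 CPM in the pulldowns, 12.5-fold lower (log2 fold change -3.64, SE 0.11, edgeR adjusted p = 2.03e-13). MT-CO2, of the same complex, was at 480 and 510 CPM in the inputs and 34.2 and 46.6 CPM in the pulldowns. MT-ND5, a subunit of complex I, was at 1094 and 1289 CPM in the inputs and 304 and 365 CPM in the pulldowns, 3.56-fold lower.

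The fall was uneven among the 13. The smallest was that of MT-ND6, the one protein of the light strand, at 94.6 and 98.1 CPM in the inputs and 57.9 and 55.5 CPM in the pulldowns (log2 fold change -0.77). The complex I subunits MT-ND4L, MT-ND5 and MT-ND4 followed, at -1.63, -1.83 and -1.93, while the 3 cytochrome c oxidase subunits lay between -3.44 and -3.64. In all of them both pulldowns lay below both inputs. Whether the counts used strand is not given in the sources used here, so reads from both strands of this compact genome cannot be told apart. Both mitochondrial ribosomal RNAs fell as well, MT-RNR2 from 8935 and 8843 CPM in the inputs to 720 and 902 CPM in the pulldowns. All mitochondrially encoded proteins together made up 0.630% and 0.729% of the input counts and 0.0937% and 0.117% of the pulldown counts.

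**Figure D3:**
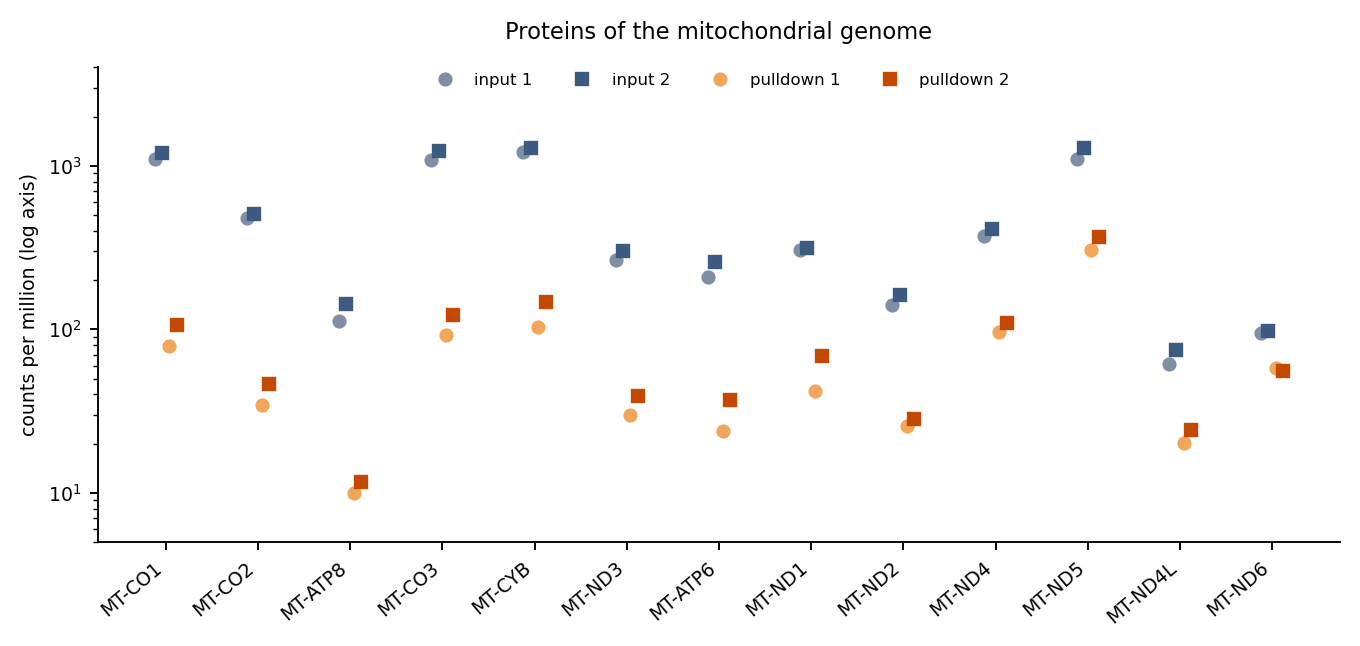
CPM on a log axis (y axis) of the 13 proteins encoded in the mitochondrial genome (x axis, ordered by log2 fold change) in each library. Both pulldown points lie below both input points for each gene, from MT-CO1 with the largest gap to MT-ND6 with the smallest.

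Mitochondrial proteins encoded in the nucleus are made by cytosolic ribosomes and imported, and they were lower too, by far less. Over 4 lists with 233 tested genes, 4 were higher and 108 (46.4%) lower, with a median of -0.27. Among all protein-coding genes 11.9% were lower, and among those of nuclear chromosomes with a mean count between 1000 and 3000 it was 18.9%. Of 82 subunits of oxidative phosphorylation, 1 was higher and 46 lower (median -0.32). COX6B1, a small subunit of cytochrome c oxidase, was at 251 and 256 CPM in the inputs and 164 and 149 CPM in the pulldowns (log2 fold change -0.70, SE 0.08, edgeR adjusted p = 1.5e-05). NDUFB7, an accessory subunit of complex I, was at 82.4 and 69.1 CPM in the inputs and 48.9 and 41.7 CPM in the pulldowns. The most counted subunit, the catalytic beta subunit of ATP synthase ATP5F1B, changed less, from 943 and 968 CPM to 803 and 783 CPM (log2 fold change -0.27).

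By complex, 23 of 38 subunits of complex I, 9 of 12 of complex IV, 8 of 18 of ATP synthase, 4 of 9 of complex III and 1 of 4 of complex II were lower. The exception that rose was NDUFA13, a complex I subunit, at 4.62 and 4.00 CPM in the inputs and 7.44 and 8.22 CPM in the pulldowns (edgeR adjusted p = 0.014). Of 76 mitochondrial ribosomal proteins, 43 were lower and 0 higher, and 1 alone had a log2 fold change above 0 (median -0.33). The large and small subunits of that ribosome were alike, with 29 of 48 and 14 of 28 lower. MRPS26 went from 31.6 and 33.7 CPM in the inputs to 20.8 and 13.7 CPM in the pulldowns.

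Larger mitochondrial proteins moved less. Of 32 matrix enzymes, with a median length of 464 residues, 10 were lower and 0 higher (median -0.15). ALDH2, mitochondrial aldehyde dehydrogenase, went from 44.7 and 47.3 CPM to 32.2 and 30.2 CPM. Of 43 mitochondrial carriers, which are multi-spanning proteins of the inner membrane, 3 were higher and 9 lower (median -0.03, but 0.02 with library totals and 0.01 with nuclear protein-coding genes alone in the fit). Their most counted member, the phosphate carrier SLC25A3, went from 515 and 526 CPM to 425 and 433 CPM (log2 fold change -0.28). Set against the median of all genes in its own length class, the typical oxidative phosphorylation subunit was 0.12 log2 units lower. The mitochondrial ribosomal protein was 0.14 and the matrix enzyme 0.12 lower, whereas the carriers were 0.04 higher. With abundance also taken into account the medians were alike, except for the carriers. All genes of 100 to under 200 residues with a mean count between 1000 and 3000 had a median of -0.32, near those of oxidative phosphorylation subunits and mitochondrial ribosomal proteins. All genes of 400 to under 800 residues with a mean count over 3000 had -0.15, as had the matrix enzymes. The carriers, with a median length of 315 residues and a median count of 418, had -0.03. All genes of 200 to under 400 residues with a mean count between 300 and 1000 had -0.14.

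**Figure D4:**
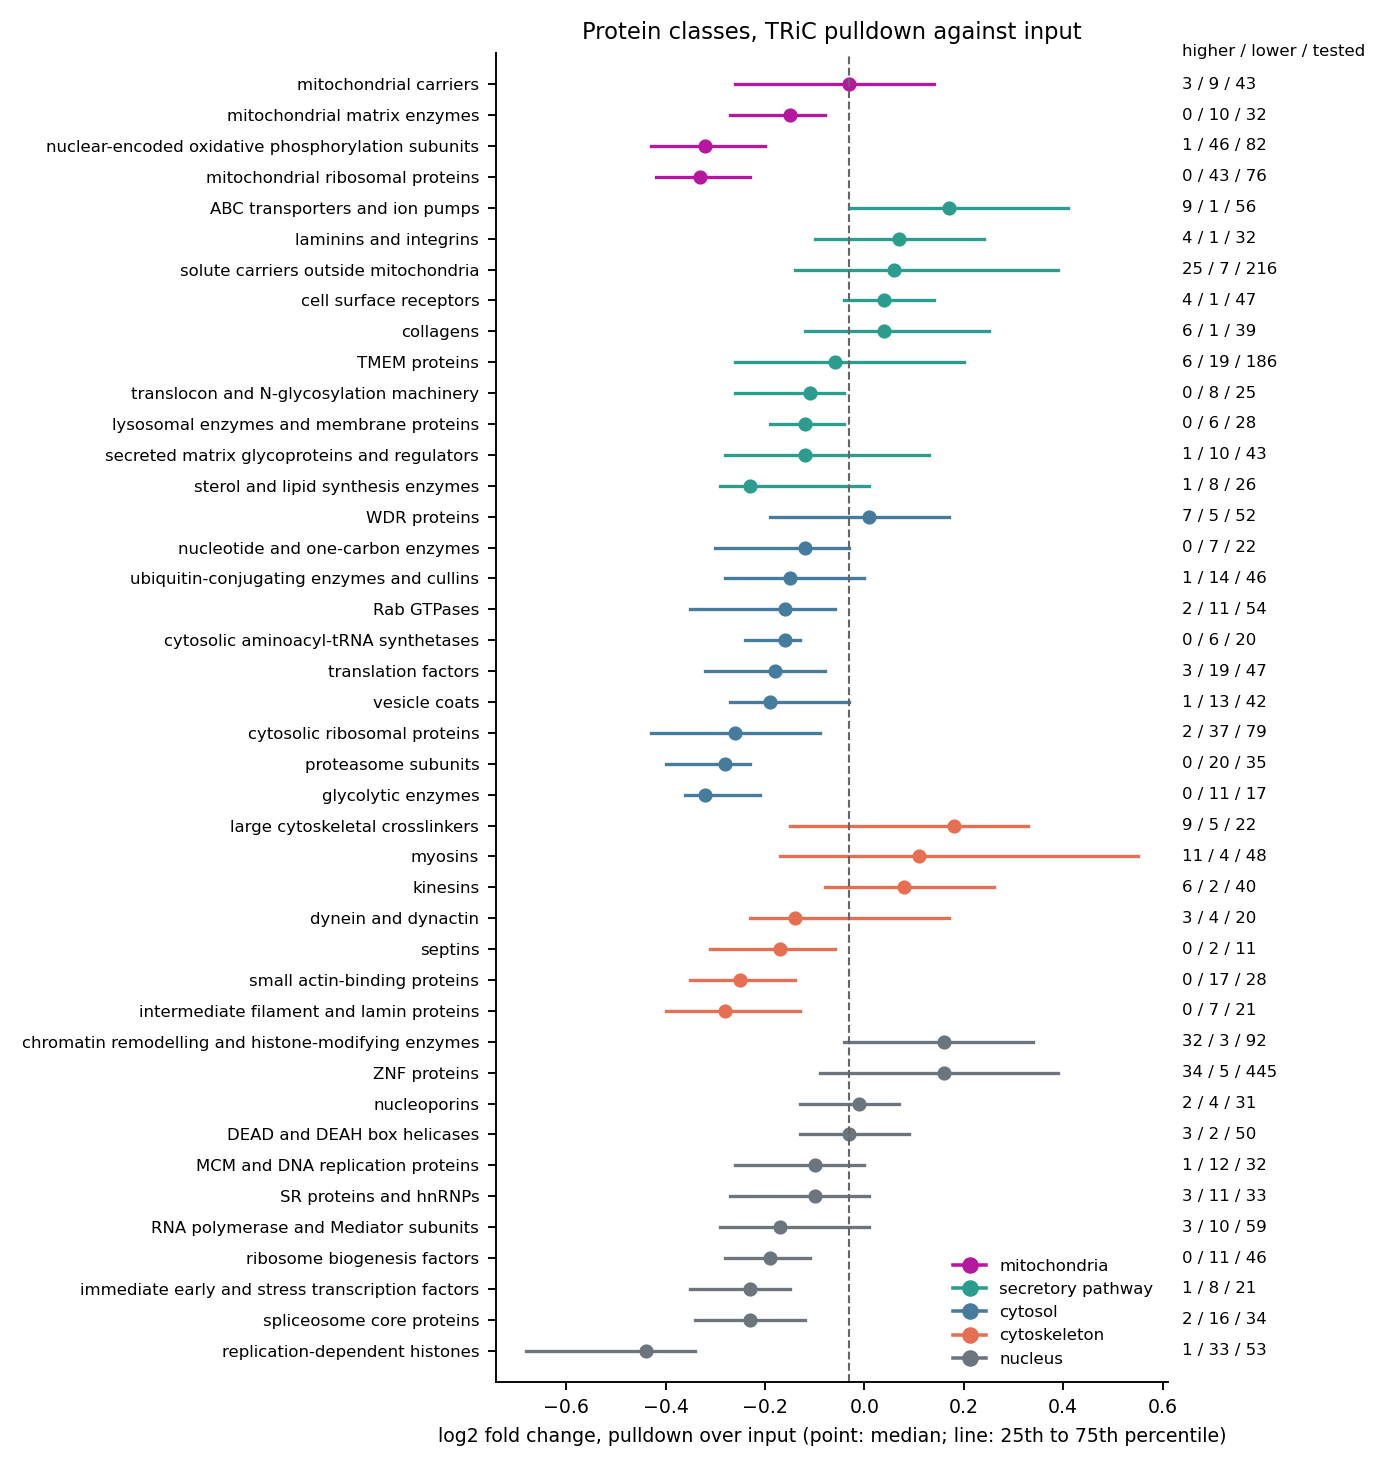
Log2 fold change of pulldown over input (x axis) for 42 lists of protein-coding genes of nuclear chromosomes (y axis), coloured by cellular place; points are medians over the tested genes, lines run from the 25th to the 75th percentile, and the numbers at the right count genes called higher, called lower and tested. The dashed line is the median of all tested nuclear protein-coding genes, -0.03. Histones (-0.44) lie lowest and large cytoskeletal crosslinkers (0.18) and ABC transporters and ion pumps (0.17) highest.

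Among soluble proteins of the cytosol more were lower than higher. Over 10 lists with 414 tested genes, 16 were higher and 143 (34.5%) lower, with a median of -0.19. These genes were abundant, with a median count of 2274. Of all nuclear protein-coding genes with a mean count between 1000 and 3000, 18.9% were lower, and of those over 3000, 33.3%. The 17 glycolytic enzymes all had a log2 fold change below 0, 11 of them called, and their median of -0.32 lay 0.23 below that of their length classes. ALDOA, the aldolase of glycolysis, was at 87.4 and 88.9 CPM in the inputs and 66.2 and 50.0 CPM in the pulldowns (log2 fold change -0.60, SE 0.11, edgeR adjusted p = 0.00146). GPI, glucose-6-phosphate isomerase, went from 699 and 682 CPM to 530 and 510 CPM. PKM, pyruvate kinase, was the most counted of them and fell by 0.21 on the log2 scale, from 5094 and 5211 CPM to 4605 and 4315 CPM, but its log2 fold change was 0.01 when cyclic loess replaced TMM.

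Of 35 subunits of the proteasome, the protease that degrades ubiquitinated proteins, 20 were lower and 0 higher (median -0.28, which was 0.23 below that of their length classes). Their median length was 310 residues and their median count 5157. Of all 384 genes of 200 to under 400 residues with a mean count over 3000, 228 were lower, with a median of -0.26, near that of the proteasome. The catalytic beta ring was lower in 8 of its 10 subunits, among them PSMB3, from 393 and 395 CPM to 289 and 259 CPM, and PSMB5, from 164 and 166 CPM to 125 and 107 CPM. The alpha ring was lower in 3 of 7 subunits, the ATPases in 4 of 6 and the remaining regulatory subunits in 5 of 12. Values of both pulldowns lay below those of both inputs for both beta subunits named.

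Of 79 cytosolic ribosomal proteins, 37 were lower and 2 higher (median -0.26, 0.06 below their length classes). Their median length was 151 residues and their median count 2710. Of all 316 genes of 100 to under 200 residues with a mean count between 1000 and 3000, 173 were lower. The median of these genes was -0.32, below that of the ribosomal proteins. RPS15, of the small subunit, was at 42.6 and 41.9 CPM in the inputs and 22.8 and 21.4 CPM in the pulldowns (log2 fold change -0.94, SE 0.11, edgeR adjusted p = 3.17e-05). RPL8, the most counted, went from 1027 and 1029 CPM to 808 and 668 CPM. RPS3A was one of the members that rose, from 3.21 and 3.01 CPM to 4.08 and 7.67 CPM. Many ribosomal protein genes have near-identical processed copies, and reads that align to several places were not counted, so the values of single members are uncertain.

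Translation factors were lower in 19 of 47 and higher in 3 (median -0.18). EEF2, the elongation factor that moves the ribosome along the mRNA, went from 2618 and 2527 CPM to 1951 and 1673 CPM (log2 fold change -0.51). The elongation factor EEF1A2 was lower at -0.61 and its close relative EEF1A1 higher at 0.61. EEF1A1 too has many copies in the genome, so its unique counts hold an unknown part of its reads. The cytosolic aminoacyl-tRNA synthetases, which charge tRNAs, were lower in 6 of 20 with 0 higher (median -0.16), as for VARS1, from 483 and 464 CPM to 369 and 340 CPM.

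The other cytosolic lists had medians between -0.19 and 0.01. Vesicle coat subunits were lower in 13 of 42, Rab GTPases in 11 of 54, ubiquitin-conjugating enzymes and cullins in 14 of 46, and nucleotide and one-carbon enzymes in 7 of 22, with medians between -0.12 and -0.19. Within vesicle coats, the clathrin light chains CLTA and CLTB fell by 0.49 and 0.61 on the log2 scale, while the clathrin heavy chain CLTC, of 1675 residues, was at 2498 and 2731 CPM in the inputs and 2425 and 2600 CPM in the pulldowns (edgeR adjusted p = 0.575). The WDR proteins, named for repeats that fold into propellers, had the highest median of the cytosolic lists, 0.01, which was -0.06 without input replicate 1 and -0.02 without pulldown replicate 2, with 7 of 52 higher and 5 lower. Their most counted member, WDR6, was lower at -0.28, and WDR27 was higher, from 18.4 and 20.2 CPM to 31.9 and 40 CPM.

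The cytoskeleton split by protein size. Of 28 small actin-binding proteins (median length 260 residues), 17 were lower and 0 higher, with a median of -0.25. Their median count was 3433. Of all 384 genes of 200 to under 400 residues with a mean count over 3000, 228 were lower, with a median of -0.26. Thymosin beta-4, TMSB4X, which sequesters actin monomers, was at 161 and 184 CPM in the inputs and 105 and 108 CPM in the pulldowns (log2 fold change -0.70, SE 0.08, edgeR adjusted p = 3.5e-05). CAPG, which caps filament ends, went from 59.4 and 60.8 CPM to 42.6 and 35.9 CPM. Of 22 large crosslinkers (median length 2624 residues), 9 were higher and 5 lower, with a median of 0.18.

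Within the crosslinkers the direction differed between members. DST (dystonin), of 7818 residues, which links filament systems, was at 716 and 750 CPM in the inputs and 1094 and 1271 CPM in the pulldowns (log2 fold change 0.69, SE 0.07, edgeR adjusted p = 8.1e-06). SYNE2, of 6907 residues, which links the nuclear envelope to the cytoskeleton, went from 442 and 455 CPM to 666 and 761 CPM, and TLN2 (talin 2) from 90.6 and 85.5 CPM to 137 and 133 CPM. FLNA (filamin A), the most counted, was at 5729 and 5388 CPM in the inputs and 5556 and 4854 CPM in the pulldowns, and its log2 fold change of -0.09 did not pass the test. Relative to other genes of their length the crosslinkers were 0.07 log2 units lower.

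Motor proteins varied in the same way. Of 36 myosin heavy chains 11 were higher and 3 lower (median 0.25), whereas of 12 light chains 1 was lower (median -0.19). MYH9, the main non-muscle heavy chain here by count, was among the lower ones, from 4493 and 4541 CPM to 3802 and 3594 CPM (log2 fold change -0.29), while the muscle heavy chains MYH3 and MYH13, at under 6 CPM in each input, were higher at 1.41 and 1.18. Of 40 kinesins, 6 were higher and 2 lower (median 0.08), with KIFC2 going from 42.6 and 35.5 CPM to 74.7 and 70.4 CPM, and KIF20A falling from 531 and 554 CPM to 438 and 447 CPM. Of 20 dynein and dynactin subunits 3 were higher and 4 lower. The dynein heavy chain DYNC2H1, of 4307 residues, was higher at 0.48 and the light chain DYNLL1, of 89 residues, lower at -0.41.

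Intermediate filament and lamin proteins, which are of middle length, were lower in 7 of 21 with 0 higher (median -0.28, or 0.27 below their length classes). LMNA, the gene of lamins A and C, went from 1037 and 1015 CPM to 805 and 730 CPM, and VIM from 1708 and 1776 CPM to 1511 and 1494 CPM. Of 11 septins, 2 were lower and 0 higher (median -0.17).

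Proteins that enter the secretory pathway are made on ribosomes at the endoplasmic reticulum, which they are led to by a hydrophobic segment, often a signal peptide at the N terminus. Over 10 lists with 697 tested genes, 56 (8.03%) were higher and 61 (8.75%) lower, with a median of 0.00, so that this place as a whole stood near the background. A hydrophobic stretch near the N terminus (10 residues within the first 40, mean Kyte-Doolittle hydropathy of at least 2.2, no charged residue) was found in 2573 tested genes by translating their coding sequences. Of these, 165 (6.41%) were higher and 210 (8.16%) lower, with a median of -0.01. The 12025 genes without such a stretch had a median of -0.03, with 8.34% higher and 12.6% lower.

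Genes with such a stretch were found at both ends of the comparison. The start of the coding sequence is shown for 4 called genes with the stretch, no later hydrophobic segment and the stretch within 1 coding exon, those with the 2 lowest and 2 highest log2 fold changes among genes averaging 500 counts or more. Capitals mark the codons of the hydrophobic stretch, and each run ends with the first coding exon or after 120 bases.
TOR3A (chr1:179082129-179082248, hg38, plus strand): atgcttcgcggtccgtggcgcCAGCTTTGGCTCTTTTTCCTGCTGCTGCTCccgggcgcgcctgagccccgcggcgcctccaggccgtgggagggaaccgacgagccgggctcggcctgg
C4orf48 (chr4:2042352-2042471, hg38, plus strand): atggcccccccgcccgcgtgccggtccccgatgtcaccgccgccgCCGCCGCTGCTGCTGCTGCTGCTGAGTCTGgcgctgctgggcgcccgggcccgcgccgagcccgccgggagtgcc
ADAMTS10 (chr19:8605623-8605710, hg38, minus strand): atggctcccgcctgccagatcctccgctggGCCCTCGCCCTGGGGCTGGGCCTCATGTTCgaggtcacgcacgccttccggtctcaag
COL7A1 (chr3:48595075-48595159, hg38, minus strand): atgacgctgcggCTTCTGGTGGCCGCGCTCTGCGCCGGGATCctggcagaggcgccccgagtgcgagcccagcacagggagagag

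TOR3A, a torsin-family protein of the endoplasmic reticulum with 397 residues, was at 669 and 579 CPM in the inputs and 139 and 129 CPM in the pulldowns, 4.64-fold lower (log2 fold change -2.22, SE 0.08, edgeR adjusted p = 2.09e-12). C4orf48, of 95 residues, had a log2 fold change of -0.72. ADAMTS10, a secreted metalloprotease of 1103 residues, had 0.78. COL7A1, the collagen of anchoring fibrils, with 2944 residues, was at 68.9 and 50.2 CPM in the inputs and 107 and 92.1 CPM in the pulldowns (log2 fold change 0.75). All 4 begin with a stretch of the same kind, and those lower were the shorter proteins.

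Membrane proteins with many hydrophobic segments were higher. Beyond the N terminus, non-overlapping stretches of 19 residues with a mean hydropathy of at least 1.6 were counted as a rough guide to membrane spans. The 327 genes with at least 8 of them had a median of 0.14, with 58 (17.7%) higher and 6 (1.83%) lower. The 10231 genes with none had a median of -0.06, with 7.17% higher and 13.8% lower. Inside length classes the gap was smaller. At 800 to under 1600 residues the median was 0.20 with at least 8 stretches and 0.12 with none, and at 400 to under 800 residues it was 0.08 and -0.02.

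By list, ABC transporters and ion pumps had a median of 0.17, with 9 of 56 higher and 1 lower. ABCC3, a multidrug resistance protein, was at 63.3 and 63.9 CPM in the inputs and 90.7 and 95.5 CPM in the pulldowns (log2 fold change 0.55, SE 0.09, edgeR adjusted p = 0.000456). Of 216 solute carriers outside mitochondria, 25 were higher and 7 lower (median 0.06), with the amino acid transporter SLC38A2 at 811 and 858 CPM in the inputs and 847 and 921 CPM in the pulldowns. Of 186 TMEM proteins, which share only a predicted membrane span and are mostly small, 6 were higher and 19 lower (median -0.06).

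Lists of matrix proteins and receptors had medians between 0.04 and 0.07. Of 39 collagens 6 were higher and 1 lower (median 0.04, but -0.16 without pulldown replicate 1 and -0.01 without input replicate 2), and the share of counts of all collagens overlapped between groups, at 1.11% and 1.06% in both inputs and 1.16% and 1.03% in both pulldowns. COL1A1, the main collagen of bone, was at 3555 and 3209 CPM in the inputs and 3242 and 2877 CPM in the pulldowns and did not pass the test. Of 32 laminins and integrins 4 were higher and 1 lower (median 0.07), with LAMA5 (laminin alpha 5, 3695 residues) going from 935 and 842 CPM to 1249 and 1188 CPM (log2 fold change 0.46). Of 47 cell surface receptors 4 were higher and 1 lower (median 0.04), among them the plexins PLXNB1 and PLXNA3 at 0.67 and 0.66. LRP1, an endocytic receptor of 4544 residues, was at 1440 and 1344 CPM in the inputs and 1418 and 1330 CPM in the pulldowns. Relative to their length classes these 3 lists were lower, by 0.09, 0.11 and 0.10 log2 units. Their median lengths were 1499, 1169 and 1106 residues and their median counts 856, 1546 and 3483. All genes of 800 to under 1600 residues had a median of 0.17 at mean counts of 300 to 1000 and 0.12 at 1000 to 3000. Over 3000 it was -0.02, below the 0.04 of the receptors.

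Secreted, reticulum and lysosomal proteins held more lower than higher calls. Of 43 secreted matrix glycoproteins and regulators 10 were lower and 1 higher (median -0.12, but 0.01 with cyclic loess). SPARC, a small matrix glycoprotein, went from 3127 and 3143 CPM to 2499 and 2376 CPM (log2 fold change -0.36, edgeR adjusted p = 0.000404, not called with cyclic loess), and TIMP1, a metalloprotease inhibitor, from 1016 and 1027 CPM to 814 and 753 CPM. Of 25 genes of the translocon and N-glycosylation machinery 8 were lower and 0 higher (median -0.11), as for SEC61B, a subunit of the translocon, from 113 and 110 CPM to 88.3 and 71.4 CPM. Of 28 lysosomal proteins 6 were lower and 0 higher (median -0.12). Of 26 enzymes and regulators of sterol and lipid synthesis 8 were lower and 1 higher (median -0.23). FASN, the fatty acid synthase, was lower although it has 2511 residues, from 2893 and 2773 CPM to 2232 and 1910 CPM (log2 fold change -0.45, SE 0.07, edgeR adjusted p = 0.000301).

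Nuclear proteins held the lowest of the nuclear-encoded lists and some of the highest. Over 11 lists with 896 tested genes, 82 (9.15%) were higher and 115 (12.8%) lower, with a median of 0.00. Of 53 replication-dependent histones, which package DNA and lack introns, 33 were lower and 1 higher, and the median of -0.44 was 0.22 below that of their length classes. Their median length was 126 residues and their median count 3541. Of all 177 genes of 100 to under 200 residues with a mean count over 3000, 145 were lower, with a median of -0.37. H1-4, a linker histone, was at 3310 and 3317 CPM in the inputs and 2166 and 1980 CPM in the pulldowns (log2 fold change -0.68, SE 0.06, edgeR adjusted p = 1.01e-06). H1-2 went from 3626 and 3841 CPM to 2865 and 2625 CPM. The fall was found in each core family, with 9 of 13 H2A, 11 of 17 H2B, 3 of 6 H3 and 7 of 12 H4 genes lower. As a whole, histones took 2.43% and 2.59% of the input counts and 1.99% and 1.83% of the pulldown counts. Core histone genes of a family are close to identical, so their single values are uncertain.

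Several other nuclear lists held more lower than higher calls. Of 34 core proteins of the spliceosome 16 were lower and 2 higher (median -0.23), as for SNRPC, from 86.0 and 81.5 CPM to 58.2 and 55.7 CPM. SNRNP200, the helicase of that machine with 2136 residues, fell by 0.20 on the log2 scale. Of 46 ribosome biogenesis factors 11 were lower and 0 higher (median -0.19). The spliceosome and ribosome biogenesis lists lay 0.21 and 0.19 below their length classes. Of 59 subunits of RNA polymerases and Mediator 10 were lower and 3 higher (median -0.17), and POLR2L, a small polymerase subunit of 67 residues, went from 153 and 162 CPM to 102 and 81.7 CPM. Of 32 MCM and DNA replication proteins 12 were lower and 1 higher (median -0.10), with MCM7 at 785 and 766 CPM in the inputs and 670 and 610 CPM in the pulldowns. Of 21 immediate early and stress transcription factors 8 were lower and 1 higher (median -0.23), as for JUND, which has a single exon, from 110 and 97.9 CPM to 82.3 and 64.2 CPM.

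Large chromatin regulators were higher. Of 92 chromatin remodelling and histone-modifying enzymes, with a median length of 1212 residues, 32 (34.8%) were higher and 3 lower (median 0.16, or 0.01 from that of their length classes). KMT2C, a histone methyltransferase of 4911 residues, was at 40.3 and 35.8 CPM in the inputs and 66.0 and 71.4 CPM in the pulldowns (log2 fold change 0.85, SE 0.10, edgeR adjusted p = 3.03e-05). HDAC8, a histone deacetylase of only 377 residues, was higher as well, from 6.82 and 6.97 CPM to 12.7 and 16.1 CPM. The demethylase KDM1A, the most counted of them, was at 353 and 380 CPM in the inputs and 325 and 326 CPM in the pulldowns and did not pass the test.

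ZNF proteins, mostly transcription factors with tandem zinc fingers, had a higher median than their length classes. Of 445 tested, 34 (7.64%) were higher, near the 7.99% of all protein-coding genes tested, and 5 lower, and the median of 0.16 was 0.14 above that of their length classes. They have low counts, with a median of 213, and all genes of 400 to under 800 residues with a mean count between 100 and 300 had a median of 0.10. Their most counted member, ZNF638, was at 236 and 251 CPM in the inputs and 282 and 304 CPM in the pulldowns (log2 fold change 0.27, edgeR adjusted p = 0.0172). Of 50 DEAD and DEAH box helicases 3 were higher and 2 lower (median -0.03, but 0.01 to 0.05 under the other scalings except DESeq2), with DDX39B, an RNA export helicase, going from 20.7 and 21.9 CPM to 37.4 and 44.7 CPM. Of 31 nucleoporins 2 were higher and 4 lower (median -0.01, but 0.03 to 0.07 under the same scalings), with RANBP2, of 3224 residues, higher at 0.31 and NUP62, of 522 residues, lower at -0.38.

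Of 33 SR proteins and hnRNPs, which guide splicing, 3 were higher and 11 lower (median -0.10). SRSF1 had the highest log2 fold change of the called nuclear-encoded protein-coding genes averaging 500 counts or more with little opposite-strand overlap, from 13.8 and 14.5 CPM in the inputs to 36.2 and 45.3 CPM in the pulldowns, 2.88-fold higher (log2 fold change 1.52, SE 0.13, edgeR adjusted p = 7.82e-07). SRSF2 went from 31.9 and 32.1 CPM to 47.1 and 54.1 CPM and HNRNPA1 from 34.7 and 40.7 CPM to 52.1 and 58.7 CPM. HNRNPU, the most counted member, was at 1040 and 1117 CPM in the inputs and 1006 and 993 CPM in the pulldowns and did not pass the test. Exons of other genes lie over 27.6% of the exon bases of SRSF2 on the opposite strand, and HNRNPA1 has processed copies, so both values are less certain.

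Among called nuclear-encoded protein-coding genes averaging 500 counts or more with little opposite-strand overlap and outside the chaperone, actin and tubulin families, 9 of the 10 highest encode proteins of over 1000 residues, with a median of 2128, and 7 of the 10 lowest encode proteins of under 300 residues, with a median of 216. After SRSF1, high values were those of EML6, a microtubule-associated protein, and ANKRD36C. EML6 (chr2:54723499-54972025, hg38), of 1958 residues, was at 14.4 and 11.3 CPM in the inputs and 27.8 and 37.1 CPM in the pulldowns (log2 fold change 1.33, SE 0.16, edgeR adjusted p = 2.98e-05). ADGRV1, a giant adhesion receptor, was at 37.0 and 37.2 CPM in the inputs and 74.4 and 91.0 CPM in the pulldowns. STARD9, a kinesin-like protein, and DNHD1, with a dynein heavy chain domain, were 2.23-fold and 2.22-fold higher, and ATRNL1, PCNX2 and ARHGAP33 were 2.06-fold to 2.11-fold higher.

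At the low end of these nuclear-encoded genes, TOR3A lay far below the other 9, while 9 of the 13 mitochondrially encoded proteins described above lay lower still. HPS6 (chr10:102065349-102068036, hg38), a subunit of a complex that builds lysosome-related organelles, was at 52.8 and 41.1 CPM in the inputs and 25.9 and 20.2 CPM in the pulldowns (log2 fold change -1.02, SE 0.14, edgeR adjusted p = 0.000107). BIRC5 (survivin), of the chromosomal passenger complex, was at 252 and 241 CPM in the inputs and 150 and 140 CPM in the pulldowns (log2 fold change -0.76). RPS15, MRPS26, PPP1R14B, ZDHHC12, FOXD1, POLR2L and UBTD1 lay between -0.76 and -0.94. For each gene named here at either end both pulldowns lay on the same side of both inputs. HPS6 and FOXD1 have a single exon. Not all single-exon genes fell: CREBZF, a transcription regulator chosen after its values were seen, went from 58.3 and 54.5 CPM to 80 and 91.9 CPM.

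**Figure D5:**
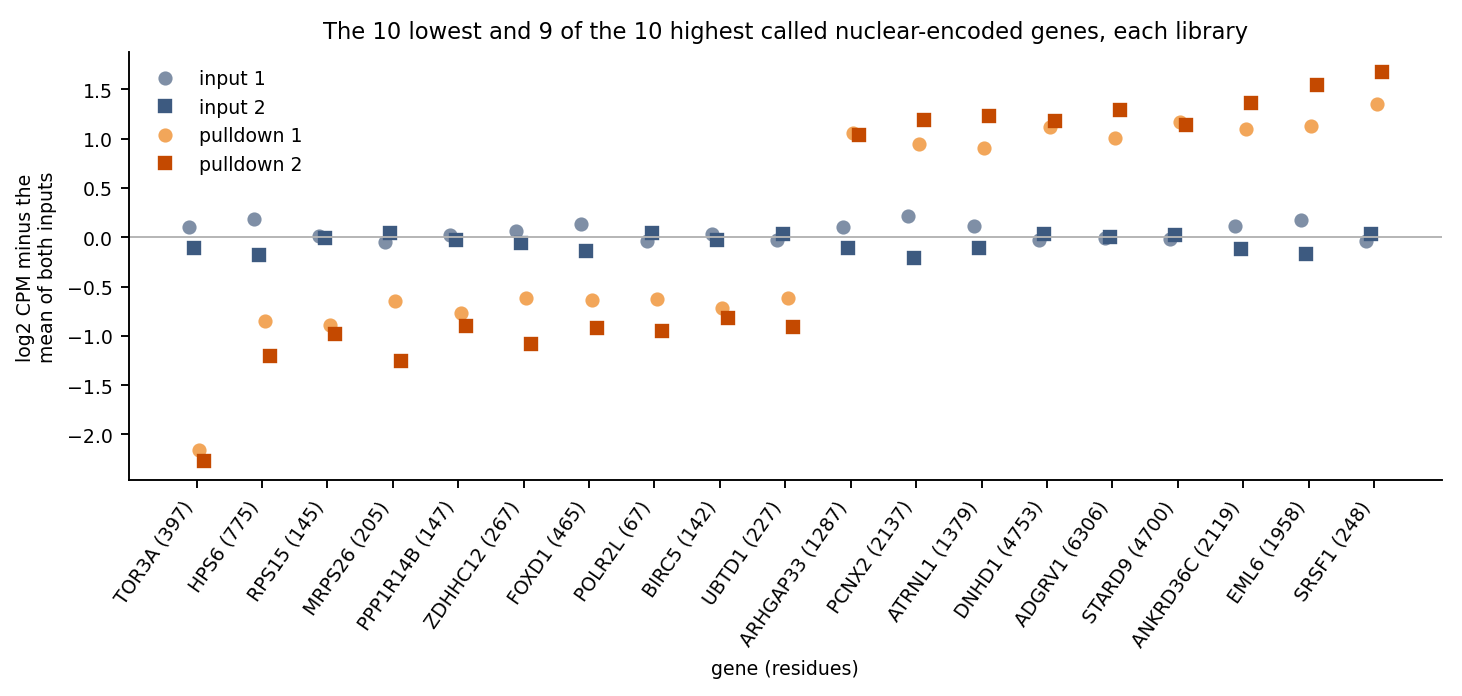
Log2 CPM minus the mean of both inputs (y axis) in each library for the 10 lowest and 9 of the 10 highest called nuclear-encoded genes averaging 500 counts or more (x axis, with protein length in residues). Both inputs lie near 0 for each gene, the pulldowns of TOR3A lie lowest, at more than 2 log2 units below, and those of SRSF1 highest.

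Genes without a coding sequence also collected counts, and several classes were higher in the pulldown. Reads that matched a library of non-coding RNA were discarded before alignment, so these counts are of reads that passed that step. Of 100 small nucleolar RNAs, which guide the modification of ribosomal RNA, 53 were higher and 1 lower (median 1.44). Of 10 small Cajal body RNAs 6 were higher (median 1.69). Of 139 small nuclear RNAs and their copies 51 were higher and 5 lower (median 1.20). RNU4-2, the U4 RNA of the spliceosome, was at 839 and 820 CPM in the inputs and 2690 and 3714 CPM in the pulldowns (log2 fold change 1.95, SE 0.10, edgeR adjusted p = 3.7e-10). SNORD104 went from 700 and 674 CPM to 1676 and 1656 CPM, while SNORD14E was at 292 and 310 CPM in the inputs and 263 and 292 CPM in the pulldowns.

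Long non-coding RNAs had a median of 0.57, with 49 of 641 (7.64%) higher and 7 lower. That share was below the 8.64% higher among all genes tested. Their median count was 15.5, and nuclear protein-coding genes with a mean count under 100 had a median log2 fold change of 0.23. MALAT1, a nuclear RNA, was at 29.6 and 14.3 CPM in the inputs and 75 and 64.5 CPM in the pulldowns, though 83.7% of its exon bases lie under an opposite-strand gene. GAS5, a snoRNA host, went from 40.7 and 32.8 CPM to 62.1 and 61.8 CPM. The vault RNAs VTRNA1-1 and VTRNA1-2 were lower, at -1.54 and -1.36. All genes outside mitochondria without a protein-coding biotype took 0.880% and 0.836% of the counts in both inputs and 1.42% and 1.53% in both pulldowns. Most RNAs of these classes are not known to be translated, and the part of such reads in the protein-coding results was not tested.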

How the data were processed

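Ribosome-protected fragments of the TRiC line were analysed from counts per gene that the authors deposited as whole numbers without normalization. Per the labels and methods, reads were trimmed and demultiplexed with awk, PCR duplicates were removed by molecular identifiers with UMI-tools, reads matching non-coding RNA were discarded with Bowtie2 2.4.2, and STAR 2.7.10a aligned the rest to hg38 with at most 2 mismatches, keeping unique alignments. The annotation release and the strand setting are not given in the sources used here. Of 60664 identifiers 60463 matched GENCODE 44, the source of names, lengths, exons and coding sequences. From these counts, edgeR 4.0.16 in R 4.3.3 (TMM, filterByExpr, glmQLFit, glmQLFTest, no replicate block) compared 2 pulldown with 2 input libraries, and Benjamini-Hochberg adjustment covered all genes tested. CPM are scaled by TMM. The fit was tested on simulated data. Biological replicates are those the study names. The methods' own test works along coding positions and was not used. Lists and length classes were described by counts and medians, with an exact permutation test over libraries for the difference between length classes and for shares of counts.

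The lists, length classes and tests were chosen with earlier results of these data known. Named genes were the 10 highest and 10 lowest called protein-coding genes, taken here among nuclear-encoded genes outside the chaperone, actin and tubulin families (mean count of at least 500, same direction in both same-numbered pairs, at most 25% of exon bases under an opposite-strand gene), and in each of 43 lists the most counted member and up to 3 called members with the largest change (mean count of at least 100). CREBZF, C4orf48, ADAMTS10, DICER1, ATP6V0E2, the remaining mitochondrially encoded genes, the complexes within lists and the genes without a coding sequence were taken outside this rule and chosen after values were seen. Of the genes this rule picked, 2 are not reported here. The prefoldin libraries were not used here. Alternatives were DESeq2 1.42.0, library totals, cyclic loess with limma 3.58.1, other filters, a 1.5-fold threshold, a replicate block and leaving out single libraries.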

Additional observations from a re-analysis of the deposited data

How the results depend on the processing

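The difference between the median log2 fold changes of proteins of at least 1600 residues and of 100 to under 200 residues, 0.50, kept its direction under every alternative. It lay between 0.45 and 0.56 when single libraries were left out, the extremes being without pulldown replicate 2 and without pulldown replicate 1. Leaving out single libraries gave 797 to 1994 genes higher and 748 to 2704 genes lower. A test against a 1.5-fold change called 164 genes higher and 64 lower. Without genes that share any exon base with an opposite-strand gene, which leaves fewer genes to test, 960 were higher and 985 lower. DESeq2, library totals, cyclic loess, the other filters on low counts and the fit without DICER1 and ATP6V0E2, which was chosen after seeing the data, gave counts within 1.5 times of those reported. Same-numbered samples deviated together only weakly (correlation 0.202 in 2 pairs), so the numbers were not taken to pair the samples. With a replicate block, 2037 genes were higher and 2652 lower, and 0 of the 170 named genes called without it were lost. Of these 170, 49 and 43 lost their call without input replicate 1 or 2, and 4 and 15 without pulldown replicate 1 or 2. Genes named above that lost it without either input were ATP5F1B, SLC25A3, PKM, WDR6, VIM, RANBP2, ZNF638, SNRNP200 and RPS3A; MCM7, DYNC2H1 and DYNLL1 lost it without input replicate 1, NDUFA13, NUP62 and KIF20A without input replicate 2, and RPS3A without pulldown replicate 2. COL1A1 and FLNA were called lower without pulldown replicate 1. With cyclic loess, PKM turned from -0.21 to 0.01, 26 named genes lost their call, and MYH9, SPARC, MCM7 and VIM were among them. DESeq2 lost 19, including DICER1, NDUFA13 and RPS3A. The cause of these changes was not tested. Pulldown and input came from 1 clonal line with 2 replicates each, so the p-values rest on the spread within pairs of samples. Depth limits the genes with a mean count under 100: of 3225 such genes, 4.03% were called higher and 0.651% lower.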
